A study of Homo sapiens with 8 samples.

Results

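Interferon-stimulated genes were followed in MDAH and SKOV3 cells, ovarian cancer lines in which SFPQ, an RNA-binding protein that takes part in splicing, had been silenced. A list of 53 genes was used, given by name. Probes were assigned to the genes through the RefSeq accessions given for the probes, and the brightest probe stood for a gene that had several. A probe was found for 52 of the 53 genes, and IFI27 is named only. All 52 were among the 15544 genes tested, of 20503 named on the arrays. On all 8 arrays, 40 of them were well above background, and the other 12 on fewer arrays.

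Both lines are established epithelial ovarian cancer lines grown in culture, MDAH standing for MDAH-2774. Each line gave 4 samples of total RNA, 1 per array, from cells not silenced (control 1 and control 2) and from cells carrying sh-SFPQ#2 or sh-SFPQ#3. The shRNAs were delivered by lentiviral vectors, and no interferon or drug treatment is named for these samples. The sample labels describe both controls of a line as cells with a control shRNA, whereas the study's methods list parental cells and cells with a control shRNA. Each control is therefore shown apart throughout. Nothing states that the arrays of a group came from separate cultures, so that p-values measure the spread between these samples, which may be technical, and the arrays of a silenced group also differ in their shRNA.

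Interferons are secreted when a cell senses viral nucleic acid, and they bind receptors whose kinases, JAK1 and TYK2 for type I interferons, phosphorylate STAT2 and its relatives. With IRF9 these form the complex ISGF3, which binds the interferon-stimulated response element in the promoters of many genes, while the gamma-activated site is the element best known from the response to interferon gamma. The products block viral entry, replication and release, modify proteins with ISG15, or feed back on the pathway. Epithelial tumour cells can carry a low tonic expression of these genes without added interferon.

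Levels are log2 signals relative to the 75th percentile of each array. In each pair of values control 1 comes before control 2, and sh-SFPQ#2 before sh-SFPQ#3. The 75th percentile of the signal lay between 244 and 496 on the 8 arrays, and 47.7% to 57.0% of probes passed the scanner software's call of well above background. SFPQ (NM_005066) itself stood at 3.64 and 3.91 on the control arrays of MDAH cells and at 2.45 and 2.10 after silencing, where it fell by 1.502 in log2 units (standard error 0.23 and adjusted p = 0.0328, limma). In SKOV3 cells it stood at 4.84 and 4.66 without and at 3.01 and 2.48 with silencing, a fall by 2.01 (standard error 0.23, adjusted p = 0.0299, limma). Silenced and control arrays did not overlap in either line, and each call was lost in 5 of the 8 fits that left out an array, among them those without any 1 of the controls. The 5 markers of simple epithelium (KRT7, KRT8, KRT18, KRT19 and EPCAM) were well above background on all arrays. Of 4 leukocyte markers CD3E was not well above background on any array, while PTPRC, CD14 and CD68 were on all, and their summed level lay between 1.45 and 1.85 in MDAH controls, 2.49 and 2.56 in silenced MDAH cells, 0.88 and 1.51 in SKOV3 controls and 1.02 and 1.55 in silenced SKOV3 cells. PTPRC, CD14 and CD68 were tested, and none was called for silencing by limma. They changed by -0.18, -0.023 and 1.08 in MDAH cells and by -0.37, 0.0058 and 0.15 in SKOV3 cells, so that the MDAH sum rose with CD68. Of 5 fibroblast markers COL3A1 and LUM were not well above background on any array, and the summed level went from between -0.78 and -0.51 to between 0.26 and 0.67 in MDAH cells, and from between -1.91 and -1.32 to between -0.46 and -0.19 in SKOV3 cells. COL1A1 rose by 1.18 in the average of the lines (adjusted p = 0.0296, limma), a call that held in 2 of the 8 fits that left out an array. The part of these markers in the results below was not tested. All arrays lay on 1 slide, with a line per row and the controls before the silenced samples, so that position and group cannot be told apart.

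After silencing, the genes of the list lay mostly higher in both lines, but few passed the test singly. In MDAH cells 45 of the 52 had a positive log2 change, with a median of 0.32 against 0.10 over all genes tested, and in SKOV3 cells 47 of 52 did, with a median of 0.59 against -0.04. With quantile normalization or the deposited table the MDAH count was 38, with a median of 0.26 against 0.05 over all genes. Without MDAH control 1 the MDAH count was also 38, and with the normexp background correction it was 48. RTP4 and PARP12 rose in MDAH cells, and MX2 and DDX60 rose in SKOV3 cells (adjusted p under 0.05, limma), where the share of all genes called higher was 0.418% and 0.425%. In the average of the lines 9 members rose, IRF9, UBA7, HERC6, OASL, DDX60, DDX60L, RTP4, BST2 and PARP12, against 2.02% of all genes. No member was called lower in any of these. MX2 passed the filter on dim probes through the silenced SKOV3 arrays alone, the group where it is high, as did RSAD2, IFI44L and GBP1, and RTP4 passed it through SKOV3 arrays only. GBP2 passed it through the MDAH controls alone. Among the 40 members well above background on all arrays, 38 changes were positive in MDAH and 37 in SKOV3 cells, with medians of 0.36 and 0.58. At an unadjusted p under 0.05, 12 members were higher in MDAH cells against 13.1% of all genes, 23 in SKOV3 cells against 9.89%, and 26 in the average against 14.3%. In bulk RNA, a change in the number of cells that express a gene and a change of RNA per cell cannot be told apart.

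These counts rested on single arrays. Without MDAH control 1 or without MDAH control 2 no member was called in either line or in the average. Without SKOV3 control 1 the counts, given in the order MDAH, SKOV3 and average, were 1, 0 and 2, and without SKOV3 control 2 it was 1, 0 and 7. Leaving out MDAH sh-SFPQ#3 gave 1, 1 and 4, and leaving out SKOV3 sh-SFPQ#3 gave 2, 1 and 3. Leaving out MDAH sh-SFPQ#2 gave 3, 1 and 10, and leaving out SKOV3 sh-SFPQ#2 gave 2, 2 and 7. The direction of each of these called changes was the same in every such fit.

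Counting arrays instead of p-values, both silenced arrays lay above both controls for 27 of the 52 members in MDAH cells, where 35.6% of all genes did so, and for 33 members in SKOV3 cells, against 25.9%. In each of the lines this held for 19 members, against 12.4% of all genes: IRF9, SOCS1, ISG15, UBA7, UBE2L6, HERC6, IFIT1, IFIT2, IFIT3, IFI44L, ISG20, OASL, DDX60, DDX60L, PLSCR1, RTP4, BST2, PARP9 and PARP12. Of these, IFI44L and RTP4 were not well above background on any MDAH array, so that their order there is that of dim signals. COL3A1 and LUM, well above background on no array, also had both silenced MDAH arrays above both controls, while CD3E did not. The 75th percentile subtracted was 496 and 483 on the MDAH controls, and 405 and 244 on the silenced MDAH arrays. How far this scaling set the order of dim signals was not tested. Both silenced arrays lay below both controls for MX2, GBP2 and RSAD2 in MDAH cells, against 21.4% of all genes, and for SP100 in SKOV3 cells, against 32.1%. MX2, GBP2 and RSAD2 were not well above background on any silenced MDAH array. With the normexp background correction their MDAH changes were 0.29, 0.19 and 0.11, on the other side of 0. The difference between the changes of the lines passed for 0 members by limma, against 0.0965% of all genes, and 7 had an unadjusted p under 0.05 against 14.9%. MX2 and RSAD2 had the largest differences by size, and MX2 passed without MDAH sh-SFPQ#2, without SKOV3 sh-SFPQ#2 or without SKOV3 sh-SFPQ#3, with -4.02, -3.81 and -4.76.

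**Figure D1:**
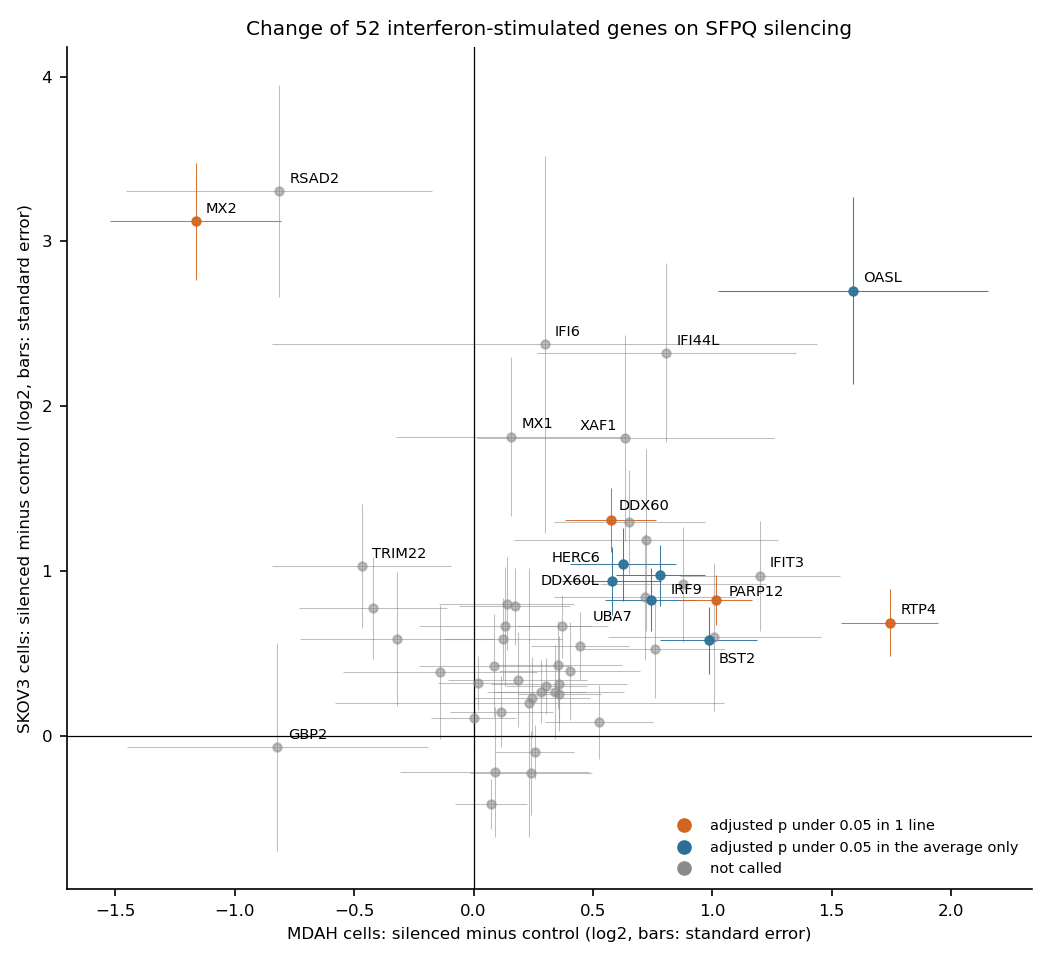
Log2 change after SFPQ silencing of the 52 interferon-stimulated genes tested, in MDAH cells on the horizontal and in SKOV3 cells on the vertical axis, with bars of 1 standard error from limma, orange for genes called in 1 line, blue for genes called in the average of the lines only and grey for the rest. Most points lie above 0 on both axes, with medians of 0.32 in MDAH and 0.59 in SKOV3 cells, and MX2 and RSAD2 lie at the upper left.

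The controls of a line were not alike for these genes. The median level of the 52 members was -0.18 in MDAH control 1, 0.43 in MDAH control 2, 0.74 with sh-SFPQ#2 and 0.77 with sh-SFPQ#3. In SKOV3 cells it was -0.27 in control 1, 0.32 in control 2, 0.73 with sh-SFPQ#2 and 0.46 with sh-SFPQ#3. Control 2 thus lay between control 1 and the silenced arrays in both lines, while the median of all genes tested stayed between 0.73 and 0.80 on the 8 arrays. Control 2 was above control 1 for 41 members in MDAH cells against 56.3% of all genes, for 48 members in SKOV3 cells against 54.5%, and for 38 members in each of the lines against 33%. It was higher by more than 1 on the log2 scale for 6 members in MDAH cells, where 0.553% of all genes were, and for 9 members in SKOV3 cells, where 2.26% were. Nothing ties the control numbers of the lines to each other, and over all genes their differences had r = 0.078. A test over both lines therefore averages pairs whose numbering may be arbitrary. Tested so by limma with 2 residual degrees of freedom, 0 members passed an adjusted p of 0.05, as did 0% of all genes. At an unadjusted p under 0.05, 16 members were higher in control 2, against 2.01% of all genes.

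Those 16 members were IRF1, ISG15, USP18, IFIT1, IFIT2, IFIT3, IFI6, IFI44, IFI35, MX1, GBP1, ISG20, OASL, CMPK2, SAMD9 and PARP10. Their control difference averaged over the lines reached 2.41 for IFI6, 1.64 for GBP1, 1.40 for OASL and 1.34 for IFI44 (adjusted p = 0.982 for each, limma). Which sample carried which vector was not tested. Set against control 1, the median change of the members was 0.41 with sh-SFPQ#2 and 0.56 with sh-SFPQ#3 in MDAH cells, and 0.94 and 0.71 in SKOV3 cells. Set against control 2, it was 0.19 and 0.23 in MDAH cells, and 0.55 and 0.28 in SKOV3 cells. All 8 of these medians were above those of all genes in the same pairs of arrays, which lay between -0.060 and 0.14.

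**Figure D2:**
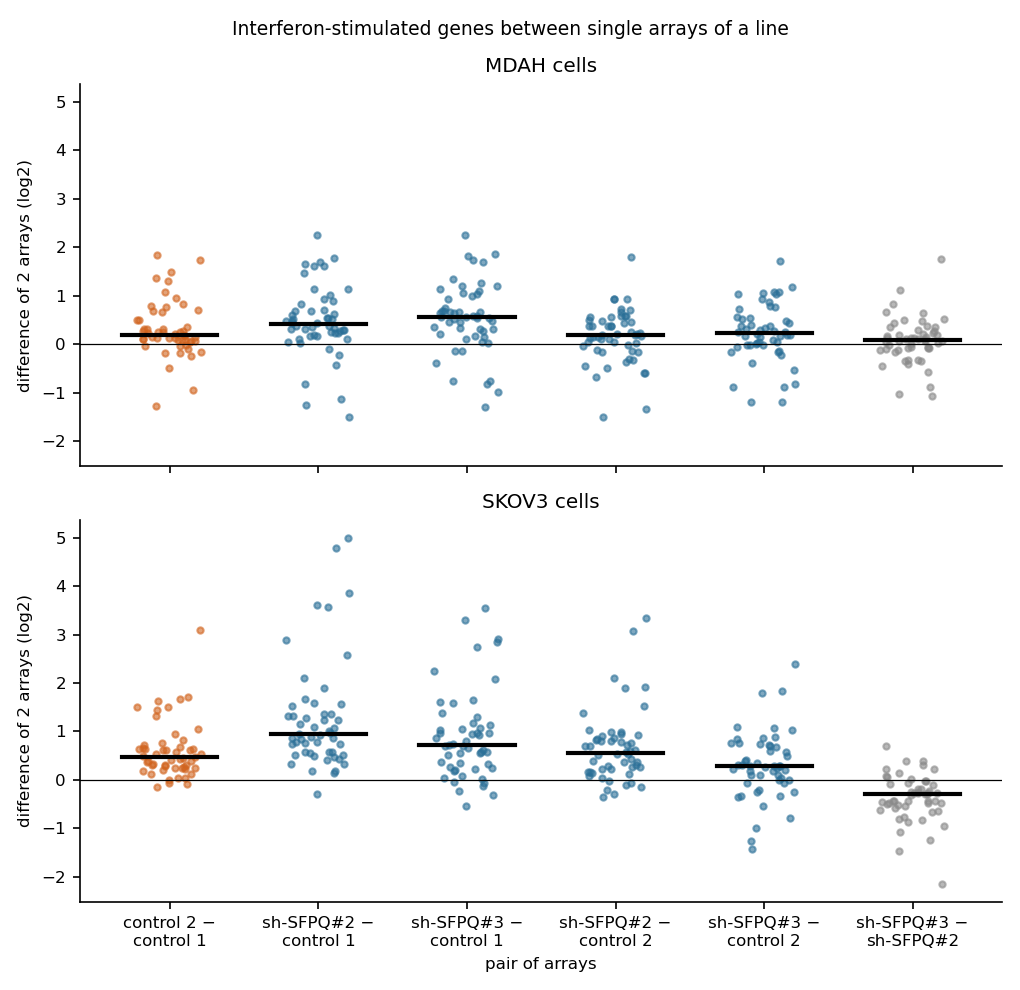
Log2 differences between single arrays of a line for the 52 genes (points, 1 per gene) with their median (black line), in MDAH cells above and SKOV3 cells below. Control 2 minus control 1 (orange) has medians of 0.20 and 0.47, the silenced arrays minus a control (blue) lie higher against control 1 than against control 2, and sh-SFPQ#3 minus sh-SFPQ#2 (grey) has medians of 0.083 and -0.30.

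The promoters of members that rose together are shown because the transcription factors of the interferon response act through short motifs there. RefSeq promoter windows of 300 bases, from 250 before to 50 after the start of the gene (GRCh38.p14), were at hand for 43 of the 53 genes, in 58 windows. OASL, IRF7, GBP2, IFIT2, PARP10, LY6E, USP18, UBA7, TRIM22 and MX2 are named only. The interferon-stimulated response element was searched as GAAANNGAAA on both strands and was in 60.3% of the members' windows, belonging to 30 genes, against 3.57% of all 35116 windows. The gamma-activated site, searched as TTCNNNGAA on both strands, was in 24.1% of the members' windows, belonging to 12 genes, against 7.66% of all windows. At least 2 response elements, with overlapping matches counted separately, were in 25.9% of the members' windows, belonging to 13 members, against 0.259% of all windows. Both motifs were found for 8 members, and the share over all windows was not computed. The 180 bases from 160 before to 20 after the start are printed below for IFI6, which differed most between the controls, and for the members called after silencing that have a window, with the motifs in capitals.
IRF9, chr14:24161105-24161284, plus strand: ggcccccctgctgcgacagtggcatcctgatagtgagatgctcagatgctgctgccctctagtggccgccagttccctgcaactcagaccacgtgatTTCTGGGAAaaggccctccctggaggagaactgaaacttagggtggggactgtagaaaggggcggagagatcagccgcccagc
HERC6, chr4:88378692-88378871, plus strand: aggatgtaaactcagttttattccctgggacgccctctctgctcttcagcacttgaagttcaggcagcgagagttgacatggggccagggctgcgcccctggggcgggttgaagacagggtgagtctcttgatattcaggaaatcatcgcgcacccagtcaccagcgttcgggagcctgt
IFI6, chr1:27672173-27672352, minus strand: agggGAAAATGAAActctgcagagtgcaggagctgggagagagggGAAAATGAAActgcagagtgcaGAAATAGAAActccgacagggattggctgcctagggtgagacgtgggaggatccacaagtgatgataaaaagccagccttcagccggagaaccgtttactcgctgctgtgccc
DDX60, chr4:168318733-168318912, minus strand: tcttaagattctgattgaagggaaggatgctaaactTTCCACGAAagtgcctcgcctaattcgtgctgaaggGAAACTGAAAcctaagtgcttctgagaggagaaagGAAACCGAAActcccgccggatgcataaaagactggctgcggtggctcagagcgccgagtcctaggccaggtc
DDX60L, chr4:168480473-168480652, minus strand: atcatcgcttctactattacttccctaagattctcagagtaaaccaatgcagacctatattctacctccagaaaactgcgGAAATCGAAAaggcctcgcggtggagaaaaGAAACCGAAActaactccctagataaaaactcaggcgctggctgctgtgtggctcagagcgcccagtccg
RTP4, chr3:187368225-187368404, plus strand: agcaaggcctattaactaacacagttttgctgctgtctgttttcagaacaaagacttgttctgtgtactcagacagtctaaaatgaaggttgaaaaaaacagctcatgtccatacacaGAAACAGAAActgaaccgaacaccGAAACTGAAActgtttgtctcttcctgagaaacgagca
BST2, chr19:17405611-17405790, minus strand: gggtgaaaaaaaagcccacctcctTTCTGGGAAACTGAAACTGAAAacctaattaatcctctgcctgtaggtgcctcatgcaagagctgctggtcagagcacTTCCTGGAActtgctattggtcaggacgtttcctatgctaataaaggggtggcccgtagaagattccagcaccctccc
PARP12, chr7:140062932-140063111, minus strand: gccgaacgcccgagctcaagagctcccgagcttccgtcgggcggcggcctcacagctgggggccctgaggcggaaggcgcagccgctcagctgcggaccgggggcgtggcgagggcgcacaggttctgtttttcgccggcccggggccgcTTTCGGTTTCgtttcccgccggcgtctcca
IFI6 held 3 response elements, DDX60, DDX60L, RTP4 and BST2 held 2 each, DDX60 with a gamma-activated site further from the start, and PARP12 held 1, on the opposite strand. In BST2 a gamma-activated site overlapped the first of 2 overlapping response elements, and another lay nearer to the start. IRF9 held a gamma-activated site without the response element, and neither motif was matched in HERC6, which says only that these letters are not in the window. These matches are a description of the reference and were not measured in these cells.

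**Figure D3:**
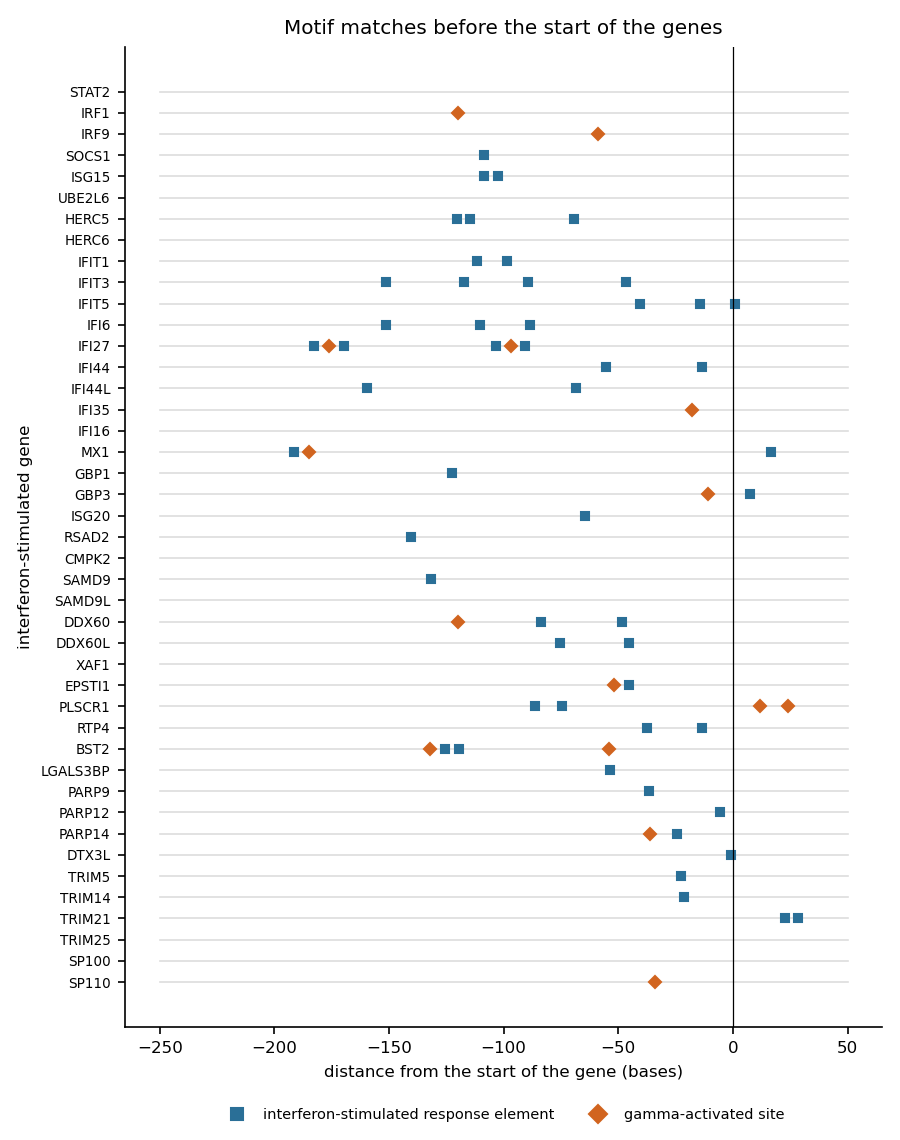
Position of each match to the interferon-stimulated response element (blue squares) and the gamma-activated site (orange diamonds) in the RefSeq promoter windows of 43 interferon-stimulated genes, as the distance of the match's centre from the start of the gene in bases, with windows of several starts of a gene drawn on 1 line. Most response elements lie before the start, as do 250 of the 300 bases of each window.

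Among the 5 transcription factors and feedback genes, IRF9 rose in the average of the lines and none passed within a line. Their median changes were 0.40 (MDAH) and 0.59 (SKOV3). IRF9 (NM_006084), the subunit that gives ISGF3 its DNA binding, was at 1.24 and 1.36 against 1.93 and 2.23 in MDAH cells and at -0.50 and -0.27 against 0.73 and 0.45 in SKOV3 cells. Every silenced array was above both controls of its line. The average change was 0.88 (standard error 0.13, adjusted p = 0.0217, limma), and it did not pass without any 1 of the 4 controls. STAT2, the other partner in ISGF3, was at 3.77 and 4.04 against 4.09 and 3.98 in MDAH cells and at 3.39 and 3.57 against 3.72 and 4.41 in SKOV3 cells. The MDAH arrays overlapped, the SKOV3 arrays did not, and neither change passed (adjusted p = 0.791 and 0.258, limma).

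IRF1, a transcription factor best known downstream of interferon gamma, was at 0.058 and 0.74 in MDAH controls, 0.88 and 0.72 in silenced MDAH cells, -0.31 and 0.022 in SKOV3 controls and 0.54 and -0.043 in silenced SKOV3 cells. In MDAH cells control 1 was the low array and the other 3 were close together. IRF7, which drives the genes of interferon alpha, was at 3.83 and 3.88 against 4.07 and 2.998 in MDAH cells and at 1.96 and 2.58 against 3.19 and 2.53 in SKOV3 cells. The low silenced arrays were those with sh-SFPQ#3, and the changes of -0.32 in MDAH and 0.59 in SKOV3 cells did not pass. SOCS1, an inhibitor of the JAK kinases, was at -1.35 and -1.24 against -0.87 and -0.20 in MDAH cells and at -3.26 and -2.60 against -2.51 and -2.30 in SKOV3 cells. Silenced and control arrays did not overlap in either line, without passing the test (adjusted p = 0.114 in the average, limma). Between the unsilenced lines IRF7, IRF9 and SOCS1 were higher in MDAH cells, by 1.59, 1.68 and 1.63 (adjusted p = 0.0141, 0.000370 and 0.00324, limma).

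**Figure D4:**
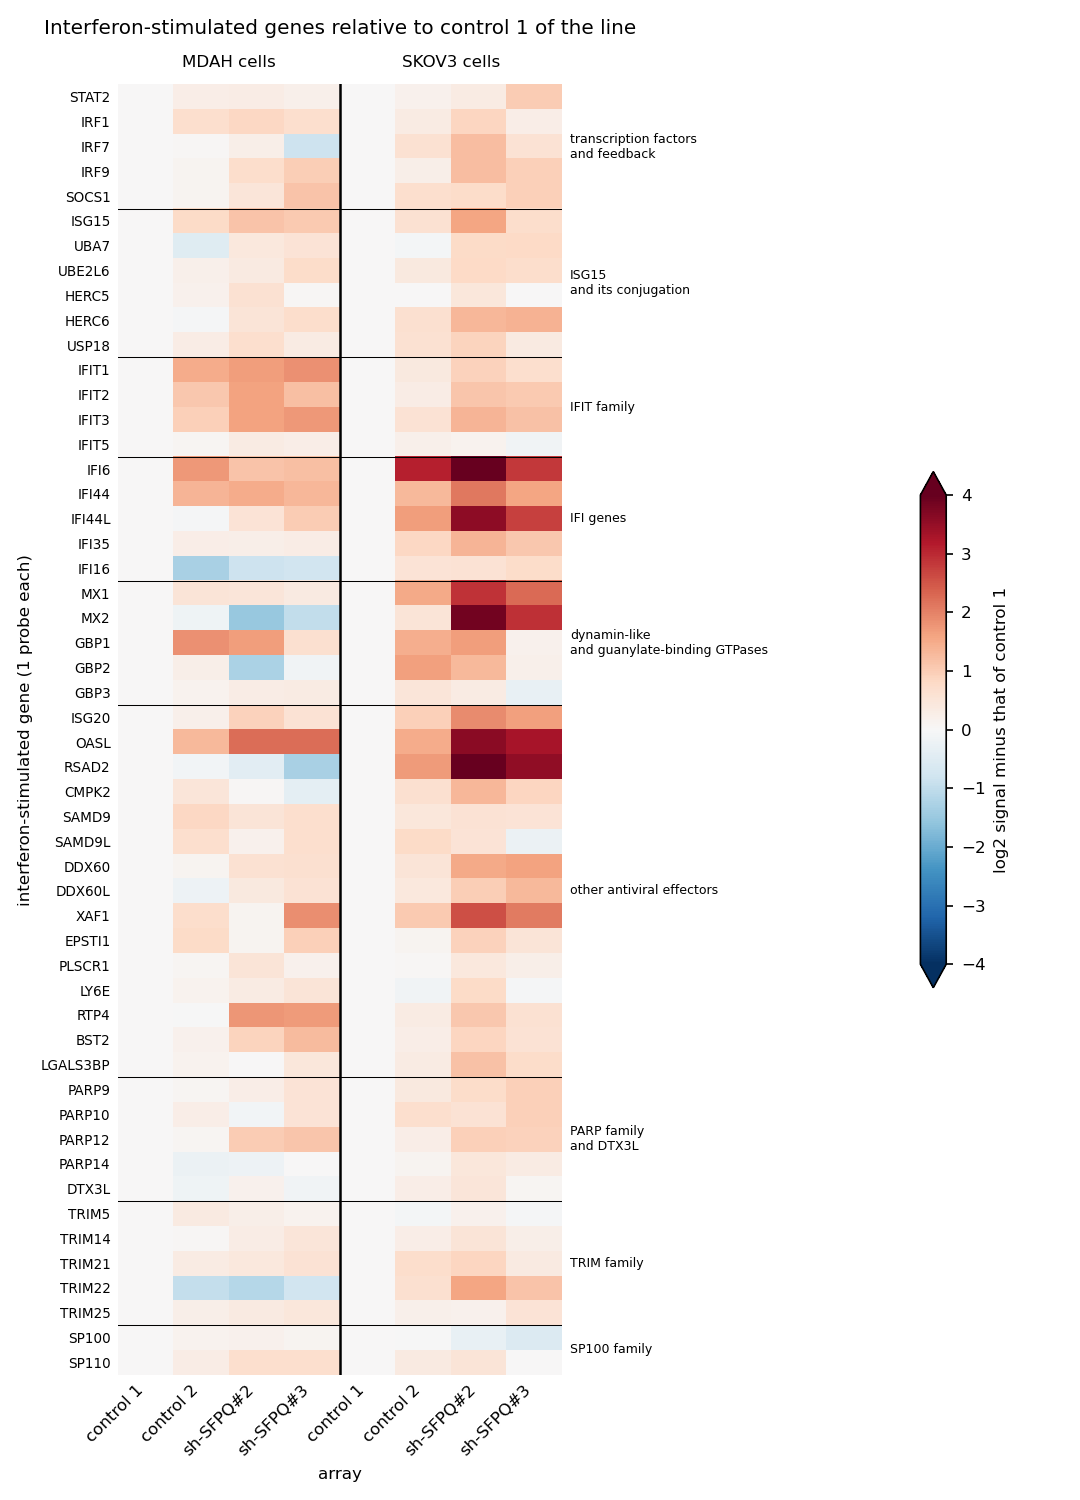
Log2 signal of the 52 genes (rows, grouped by role) on each of the 8 arrays (columns) minus that on control 1 of the same line, red for higher and blue for lower, with colours held at 4 and -4. Control 2 is already red for many members in both lines, and IFI6, IFI44L, MX2, OASL and RSAD2 are darkest in silenced SKOV3 cells. MX2, RSAD2, GBP2, TRIM22 and IFI16 are blue on both silenced MDAH arrays, GBP2 only faintly with sh-SFPQ#3 (-0.15). None of them was well above background on those arrays.

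Of ISG15, the enzymes that attach it, a related gene and the protease that removes it, UBA7 and HERC6 rose in the average of the lines and none of the 6 passed within a line. All 6 changes were positive in each line, with medians of 0.54 in MDAH and 0.69 in SKOV3 cells. ISG15, a ubiquitin-like modifier that is also secreted, was at 4.07 and 4.83 in MDAH controls and 5.21 and 5.13 after silencing, and at 2.43 and 3.03 against 4.02 and 3.13 in SKOV3 cells. Silenced arrays were above the controls in each line, but with sh-SFPQ#3 in SKOV3 cells only by 0.10 over control 2, and the average change of 0.78 did not pass (adjusted p = 0.130, limma). UBA7 (NM_003335), the enzyme that activates ISG15, was at -4.22 and -4.72 against -3.79 and -3.66 in MDAH cells and at -2.71 and -2.79 against -1.93 and -1.92 in SKOV3 cells. The groups did not overlap, and UBA7 rose by 0.78 in the average (standard error 0.14, adjusted p = 0.0296, limma). The call was lost in 6 of the 8 fits that left out an array, held only without MDAH sh-SFPQ#2 or SKOV3 sh-SFPQ#2, and with the normexp background correction the change was 0.46 and passed.

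UBE2L6, which carries ISG15 to its targets, was at 1.73 and 1.95 against 2.11 and 2.47 in MDAH cells and at 0.78 and 1.18 against 1.57 and 1.48 in SKOV3 cells, without overlap and without passing (adjusted p = 0.0918 in the average, limma). HERC5, the main ligase for ISG15, was at 0.045 and 0.22 against 0.67 and 0.084 in MDAH cells and at 2.40 and 2.43 against 2.86 and 2.42 in SKOV3 cells. In each line sh-SFPQ#2 stood above both controls and sh-SFPQ#3 did not. HERC6 (NM_017912), a related gene, was at -3.68 and -3.72 against -3.16 and -2.99 in MDAH cells and at -2.28 and -1.65 against -0.95 and -0.89 in SKOV3 cells. The groups did not overlap in either line, and HERC6 rose by 0.83 in the average (standard error 0.16, adjusted p = 0.0356, limma). Without MDAH control 1, MDAH control 2, MDAH sh-SFPQ#3, SKOV3 control 1 or SKOV3 sh-SFPQ#3 it did not pass. A second HERC6 probe changed by 0.24 in MDAH and by 1.12 in SKOV3 cells.

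USP18, which removes ISG15 and also dampens the type I receptor, was at 1.49 and 1.80 against 2.18 and 1.83 in MDAH cells and at -0.24 and 0.37 against 0.65 and 0.11 in SKOV3 cells. In SKOV3 cells sh-SFPQ#3 was below control 2. Of this group ISG15, UBE2L6 and USP18 were higher in unsilenced MDAH than in unsilenced SKOV3 cells, by 1.72, 0.86 and 1.58. UBA7, HERC5 and HERC6 were lower there, with differences of -1.72, -2.28 and -1.74 (adjusted p between 0.000319 and 0.0106 for these 6, limma). ISG15 and the enzyme that activates it, UBA7, thus differed between the lines in opposite directions.

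The IFIT family, proteins that bind viral RNA and block its translation, had positive changes for all 4 members in MDAH cells and 3 of 4 in SKOV3 cells, with medians of 0.94 and 0.76, and none passed. IFIT1 was at 0.48 and 1.96 in MDAH controls and 2.16 and 2.29 after silencing, and at -0.19 and 0.21 against 0.74 and 0.47 in SKOV3 cells. In MDAH cells control 2 was 1.48 above control 1 and the silenced arrays were at most 0.33 above control 2. IFIT2 was at -0.30 and 0.77 against 1.32 and 0.91 in MDAH cells and at -1.65 and -1.34 against -0.55 and -0.60 in SKOV3 cells. IFIT3, which stabilizes IFIT1, was at -1.78 and -0.84 against -0.17 and -0.057 and at -0.36 and 0.22 against 0.997 and 0.80. For these 3 genes all silenced arrays were above both controls of their line. The average change of IFIT3, 1.08, was just outside the threshold (standard error 0.24, adjusted p = 0.0505, limma). IFIT5 was at 1.66 and 1.75 against 1.998 and 1.93 in MDAH cells and at 2.20 and 2.41 against 2.34 and 2.07 in SKOV3 cells, where the arrays overlapped. Between the unsilenced lines IFIT2 was higher in MDAH cells by 1.73, IFIT3 and IFIT5 were lower with -1.24 and -0.60 (adjusted p = 0.00515, 0.0175 and 0.0184, limma), and IFIT1 did not pass (adjusted p = 0.0539).

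Of the IFI genes, all 5 measured had a positive change in SKOV3 cells and 4 of 5 in MDAH cells, with medians of 1.19 and 0.30, and none passed in either line or in the average. IFI6, a small membrane protein that limits some viruses and cell death, was at 2.64 and 4.37 in MDAH controls and 3.78 and 3.84 after silencing, and at 0.59 and 3.69 against 5.596 and 3.44 in SKOV3 cells. Control 2 was above control 1 by 1.73 in MDAH and by 3.09 in SKOV3 cells, above both silenced MDAH arrays and above sh-SFPQ#3 in SKOV3 cells. The change of 2.38 in SKOV3 cells had a standard error of 1.14 (adjusted p = 0.312, limma). IFI44, of unknown biochemical activity, was at -3.05 and -1.69 against -1.58 and -1.71 in MDAH cells and at -0.51 and 0.80 against 1.59 and 1.07 in SKOV3 cells. In MDAH cells control 1 alone was low.

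IFI44L, its neighbour and relative, was at -7.03 and -7.08 against -6.49 and -6.01 in MDAH cells, where no array was well above background, and at -4.74 and -3.07 against -1.16 and -1.997 in SKOV3 cells. In SKOV3 cells the silenced arrays were above both controls, by 2.32 on average (standard error 0.54, adjusted p = 0.105, limma). The MDAH levels of IFI44L were close to those of LUM, well above background on no array (-7.02 and -7.05 against -6.46 and -5.96). IFI16, a nuclear sensor of DNA, was at -3.62 and -4.91 against -4.44 and -4.37 in MDAH cells and at -0.83 and -0.29 against -0.25 and -0.097 in SKOV3 cells. In MDAH cells only control 1 was well above background. In SKOV3 cells the silenced arrays were just above the controls. IFI35 changed by 0.14 in MDAH and 0.80 in SKOV3 cells without passing. Unsilenced MDAH cells were lower than unsilenced SKOV3 cells for IFI44, IFI44L and IFI16, with differences of -2.51, -3.15 and -3.71 (adjusted p = 0.00746, 0.00260 and 0.000360, limma). For IFI44L this means at least 1.96-fold, since MDAH was below background, with 1 of the 2 SKOV3 controls above it. These differences moved with the controls: IFI44 ran from -3.20 without MDAH control 2 to -1.83 without MDAH control 1 and from -3.17 without SKOV3 control 1 to -1.86 without SKOV3 control 2. IFI44L was at -3.99 without SKOV3 control 1 and -2.32 without SKOV3 control 2. IFI16 was at -4.35 without MDAH control 1 and -3.06 without MDAH control 2.

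Of the 5 dynamin-like and guanylate-binding GTPases, MX2 rose in SKOV3 cells. In each line 3 of the 5 changes were positive, with medians of 0.16 in MDAH and 0.20 in SKOV3 cells. MX1, which traps viral nucleoproteins, was at 2.72 and 3.23 in MDAH controls and 3.20 and 3.07 after silencing, and at -1.15 and 0.36 against 1.73 and 1.11 in SKOV3 cells. The silenced SKOV3 arrays were above both controls and the MDAH arrays overlapped, with changes of 1.81 and 0.16 that did not pass (adjusted p = 0.128 and 0.866, limma). MX2 (NM_002463), which blocks nuclear import of HIV, was at -4.78 and -4.94 against -6.29 and -5.76 in MDAH cells and at -6.04 and -5.52 against -2.18 and -3.13 in SKOV3 cells. Only the 2 silenced SKOV3 arrays were well above background. MX2 rose in SKOV3 cells, at least 2.51-fold (log2 change 3.12, standard error 0.36, adjusted p = 0.0295, limma), where the bound sets the silenced mean against the lowest signal well above background on the control arrays. Without any 1 of the 4 controls the call was lost, and with the normexp background correction the change was 0.79 and did not pass. In MDAH cells the values of MX2 were all below background, so that their difference of -1.16 has no fold. The difference between the lines was -4.29 (adjusted p = 0.0549, limma).

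GBP1, a GTPase that coats intracellular pathogens, was at -6.75 and -4.92 against -5.09 and -6.11 in MDAH cells and at -4.29 and -2.84 against -2.62 and -4.10 in SKOV3 cells. In both lines control 1 and sh-SFPQ#3 were low, control 2 and sh-SFPQ#2 were high, and GBP1 was well above background on 3 arrays, all of SKOV3 cells. GBP2 was at -4.18 and -3.94 against -5.43 and -4.33 in MDAH cells and at -5.24 and -3.61 against -3.96 and -5.03 in SKOV3 cells. It was well above background on 3 arrays in all, and on no silenced array. GBP3 was at 0.51 and 0.64 against 0.81 and 0.83 and at 0.21 and 0.68 against 0.53 and -0.10. Silenced MDAH arrays were above their controls for GBP3 by a mean of 0.24 (adjusted p = 0.599, limma), and SKOV3 arrays overlapped. Between the unsilenced lines MX1 was higher in MDAH cells, 10.3-fold (log2 difference 3.37, standard error 0.48, adjusted p = 0.00117, limma), with 2.62 without SKOV3 control 1 and 4.12 without SKOV3 control 2. GBP1, well above background on 1 of the 2 SKOV3 controls, was lower there, at least 2.49-fold (adjusted p = 0.0493, limma), a call that was lost without MDAH control 1 (log2 difference -1.36), SKOV3 control 2 (-1.55) or either silenced MDAH array.

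The 15 other antiviral effectors held 5 of the 9 calls in the average, OASL, DDX60, DDX60L, RTP4 and BST2. Their median change was 0.35 in MDAH and 0.78 in SKOV3 cells. OASL (NM_003733), a relative of the oligoadenylate synthetases that lacks their activity, was at -0.32 and 0.99 in MDAH controls and 1.93 and 1.92 after silencing, and at -4.50 and -3.01 against -0.90 and -1.21 in SKOV3 cells. The silenced arrays were above both controls in each line, and control 2 was above control 1 by 1.31 and 1.496. OASL rose by 2.15 in the average (standard error 0.40, adjusted p = 0.0353, limma). The call held only without MDAH sh-SFPQ#2 or without SKOV3 control 2 among the 8 fits that left out an array, and with the normexp background correction the change was 1.30 and passed.

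RSAD2 (viperin), an enzyme that makes a chain-terminating nucleotide, was at -4.37 and -4.47 against -4.80 and -5.68 in MDAH cells and at -5.87 and -4.16 against -1.08 and -2.33 in SKOV3 cells. It was well above background on 3 arrays, among them both silenced SKOV3 arrays. In SKOV3 cells the silenced mean was at least 4.86-fold that of the controls (log2 difference 3.31, standard error 0.64), without passing (adjusted p = 0.0770, limma). The change in MDAH cells was -0.81 with both silenced arrays below background. CMPK2, the nucleotide kinase encoded next to RSAD2, was at -2.77 and -2.27 against -2.72 and -3.16 in MDAH cells and at -1.36 and -0.73 against -0.036 and -0.50 in SKOV3 cells. It overlapped in MDAH cells and not in SKOV3 cells, with changes of -0.42 and 0.78.

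DDX60 (NM_017631), a helicase linked to the sensing of viral RNA, was at -0.55 and -0.45 against 0.047 and 0.097 in MDAH cells and at -0.48 and 0.023 against 1.04 and 1.12 in SKOV3 cells. Both shRNAs gave nearly the same level within a line, and no silenced array overlapped a control. DDX60 rose 2.48-fold in SKOV3 cells (log2 change 1.31, standard error 0.19, adjusted p = 0.0440, limma) and by 0.94 in the average (adjusted p = 0.0201, limma). The SKOV3 call held only without SKOV3 sh-SFPQ#2 among the 8 fits, and the call in the average was lost without MDAH control 1, MDAH control 2, SKOV3 control 1 or SKOV3 sh-SFPQ#3. DDX60L (NM_001012967), its neighbour on chromosome 4, was at -0.054 and -0.24 against 0.33 and 0.53 in MDAH cells and at 1.48 and 1.91 against 2.48 and 2.78 in SKOV3 cells. Silenced arrays were again clear of the controls, and DDX60L rose by 0.76 in the average (standard error 0.15, adjusted p = 0.0374, limma), a call that held only without MDAH sh-SFPQ#2 or without SKOV3 sh-SFPQ#2. Probe sequences were not used here, so that cross-hybridization between close relatives such as these was not tested.

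RTP4 (NM_022147), a receptor chaperone that also restricts viral replication, was at -6.70 and -6.72 against -4.93 and -5.002 in MDAH cells and at -1.98 and -1.67 against -0.91 and -1.38 in SKOV3 cells. The silenced arrays were above the controls in each line. Its rise in MDAH cells passed (log2 change 1.74, standard error 0.20, adjusted p = 0.0150, limma). No MDAH array was well above background, so that no fold is given, and with quantile normalization the change was 1.17 and did not pass. Of genes well above background on no array, COL3A1 went from a mean of -6.94 to -6.11 in MDAH cells, and IFNA7 from -5.14 to -5.40. The part of the scaling in the MDAH change of RTP4 was not tested. In the average RTP4 rose by 1.21 (adjusted p = 0.0118, limma). Without MDAH control 1 or MDAH control 2 neither call held, and with normexp correction its average was 0.54 and did not pass.

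BST2 (NM_004335), or tetherin, which holds budding virus on the cell surface, was at -0.34 and -0.15 against 0.55 and 0.93 in MDAH cells and at 3.93 and 4.20 against 4.79 and 4.50 in SKOV3 cells. Silenced arrays were above controls in each line, with sh-SFPQ#3 the higher in MDAH and sh-SFPQ#2 the higher in SKOV3 cells. BST2 rose by 0.78 in the average (standard error 0.14, adjusted p = 0.0348, limma), which held only without MDAH sh-SFPQ#2 among the 8 fits that left out an array. ISG20, an exonuclease that degrades single-stranded RNA, was at 3.51 and 3.71 against 4.43 and 4.09 in MDAH cells and at 0.79 and 1.74 against 2.69 and 2.44 in SKOV3 cells. Silenced arrays did not overlap the controls, and the average change of 0.98 missed the threshold (adjusted p = 0.0560, limma). PLSCR1, a membrane protein that hinders viral entry, was at 0.79 and 0.88 against 1.32 and 0.97 in MDAH cells and at 2.45 and 2.49 against 2.86 and 2.68 in SKOV3 cells, again without overlap, but with changes of 0.31 and 0.30 that did not pass.

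XAF1, a partner of the apoptosis inhibitor XIAP, was at -6.66 and -5.96 against -6.55 and -4.79 in MDAH cells, below background on all 4 arrays, and at -3.51 and -2.45 against -0.93 and -1.42 in SKOV3 cells. The silenced SKOV3 arrays were above both controls by a mean of 1.81 (standard error 0.62, adjusted p = 0.193, limma). A second XAF1 probe, well above background on 3 arrays, went the other way between the controls, with a difference of -2.10 in each line. EPSTI1, a gene of stromal and interferon responses, was at -6.31 and -5.53 against -6.21 and -5.37 in MDAH cells, all below background, and at -3.45 and -3.34 against -2.52 and -2.94 in SKOV3 cells. SAMD9, a restriction factor for poxviruses, was at -3.26 and -2.43 against -2.73 and -2.59 in MDAH cells and at -2.10 and -1.65 against -1.52 and -1.55 in SKOV3 cells. For both genes the SKOV3 groups did not overlap and the MDAH groups did.

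SAMD9L, the neighbour of SAMD9, was at -6.78 and -6.11 against -6.61 and -6.11 in MDAH cells, all below background, and at -0.40 and 0.35 against 0.15 and -0.63 in SKOV3 cells. The arrays of each line overlapped. LY6E, a surface protein that blocks coronavirus fusion, was at 1.95 and 2.08 against 2.27 and 2.47 in MDAH cells and at 1.34 and 1.201 against 2.11 and 1.29 in SKOV3 cells. LGALS3BP, a secreted glycoprotein that binds galectin, was at 2.15 and 2.30 against 2.18 and 2.61 and at 1.38 and 1.69 against 2.54 and 2.10. The silenced groups stood clear of the controls for LY6E in MDAH cells and for LGALS3BP in SKOV3 cells, without passing (adjusted p = 0.458 and 0.151, limma).

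Of the PARP family and DTX3L, PARP12 rose in MDAH cells and in the average, and all 5 genes had positive changes in each line, with medians of 0.12 in MDAH and 0.42 in SKOV3 cells. PARP12 (NM_022750), a mono-ADP-ribosyltransferase that restricts RNA viruses, was at 2.05 and 2.13 against 3.06 and 3.16 in MDAH cells and at 1.71 and 1.96 against 2.67 and 2.64 in SKOV3 cells. The arrays of a group lay close to each other, and silenced arrays were clear of the controls in both lines. It rose 2.02-fold in MDAH cells (log2 change 1.02, standard error 0.15, adjusted p = 0.0293, limma), and the change of 0.82 in SKOV3 cells did not pass (adjusted p = 0.0706, limma). Of these members it had the smallest adjusted p in the average (log2 change 0.92, standard error 0.11, adjusted p = 0.0112, limma). The average was called except without MDAH control 1 or MDAH control 2, while the MDAH call also failed without MDAH sh-SFPQ#3, SKOV3 control 1 or SKOV3 control 2.

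PARP9, which works with the ligase DTX3L on chromatin, was at -0.50 and -0.43 against -0.23 and 0.047 in MDAH cells and at 0.19 and 0.57 against 0.94 and 1.15 in SKOV3 cells. Groups did not overlap, and a second PARP9 probe went the other way, with changes of -0.17 and -0.24. DTX3L was at -0.78 and -0.96 against -0.59 and -0.92 in MDAH cells and at 0.0031 and 0.28 against 0.50 and 0.073 in SKOV3 cells. PARP10, another mono-ADP-ribosyltransferase, was at 3.15 and 3.41 against 3.05 and 3.69 and at 1.90 and 2.58 against 2.47 and 2.86. Both genes overlapped in both lines, and PARP14 changed by 0.018 and 0.32 without passing.

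None of the TRIM ligases or SP100 genes passed for silencing, and their median changes were 0.28 and 0.26 for the TRIM family and 0.30 and -0.17 for the SP100 family, in MDAH and SKOV3 cells. TRIM5, which recognizes retroviral capsids, was at -2.04 and -1.68 against -1.82 and -1.90 in MDAH cells and at -2.56 and -2.64 against -2.38 and -2.61 in SKOV3 cells. TRIM21, an intracellular antibody receptor, was at -0.86 and -0.55 against -0.43 and -0.29 and at -2.48 and -1.77 against -1.61 and -2.12. Only the MDAH arrays of TRIM21 were free of overlap. TRIM22, an inducible relative of TRIM5, was at -5.21 and -6.17 against -6.34 and -5.98 in MDAH cells, all below background, and at -3.73 and -3.09 against -2.16 and -2.60 in SKOV3 cells. In SKOV3 cells its silenced arrays were above both controls by a mean of 1.03 (standard error 0.37, adjusted p = 0.207, limma). TRIM14 and TRIM25, which act in the sensing of viral RNA, had changes between 0.25 and 0.36 in the lines.

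SP100, a component of nuclear bodies that silence viral DNA, was at 6.04 and 6.17 against 6.21 and 6.14 in MDAH cells and at 6.97 and 6.96 against 6.67 and 6.43 in SKOV3 cells. Both silenced SKOV3 arrays were below both controls (-0.42, adjusted p = 0.207, limma), and its other probes changed there by -0.15 and 0.48. SP110, its relative, was at 0.63 and 0.94 against 1.31 and 1.30 in MDAH cells and at -0.22 and 0.15 against 0.28 and -0.19 in SKOV3 cells. The silenced MDAH arrays were above their controls for SP110, and those of SKOV3 overlapped.

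More members were called between the unsilenced lines than for silencing, as was also so for all genes. Between the controls, 16 members were higher in MDAH cells, against 26.8% of all genes, and 22 were lower, against 30.7% (adjusted p under 0.05, limma), while the median difference over the 52 members was 0.0023 against -0.054 for all genes. The 5 highest in MDAH cells were OASL, MX1, ISG20, IFIT2 and ISG15. OASL was 17-fold higher (log2 difference 4.09, standard error 0.57, adjusted p = 0.000985, limma) and ISG20 was 5.07-fold higher (log2 difference 2.34, adjusted p = 0.000902, limma). The control arrays of the lines did not overlap for either gene. OASL was well above background on 1 of the 2 SKOV3 controls, and its log2 difference was 3.34 without SKOV3 control 1, 4.84 without SKOV3 control 2, 4.75 without MDAH control 1, 3.43 without MDAH control 2 and 2.38 with the normexp background correction.

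At the other end stood SAMD9L, RTP4, BST2, IFI16 and XAF1, which were lower in MDAH cells. SAMD9L was at least 28.9-fold higher in SKOV3 cells (log2 difference -6.43), RTP4 at least 8.29-fold (-4.88) and XAF1 at least 3.73-fold (-3.33), bounds that apply because the MDAH controls were not well above background. BST2 was measured in both lines and was 19.8-fold higher in SKOV3 cells (log2 difference -4.31, standard error 0.20, adjusted p = 1.08e-05, limma), and IFI16, with 1 of the 2 MDAH controls well above background, was 13-fold higher (adjusted p = 0.000360, limma). EPSTI1 and TRIM22 were at least 2.8-fold and 2.76-fold higher in SKOV3 cells. Antiviral effectors thus lay at both ends of the difference between the lines.

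The other members called between the unsilenced lines follow with their log2 differences. Higher in MDAH cells were TRIM21 (1.43), PARP10 (1.04), SP110 (0.82), LY6E (0.74), TRIM5 (0.74) and LGALS3BP (0.69). Lower were DDX60L (-1.84), PLSCR1 (-1.63), CMPK2 (-1.47), DTX3L (-1.01), SAMD9 (-0.97), SP100 (-0.86) and PARP9 (-0.85). LY6E passed only without a silenced SKOV3 array and LGALS3BP only without a silenced array of either line. Leaving out 1 control ended the calls of IRF7, ISG15, UBE2L6, IFIT3, IFIT5, SAMD9, PARP9, PARP10, TRIM5 and SP110 in at least 1 fit, and between 29 and 39 members were called without any 1 array. DDX60 and PARP12, which were called for silencing, did not differ beyond the spread between the lines (adjusted p = 0.262 and 0.183, limma).

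**Figure D5:**
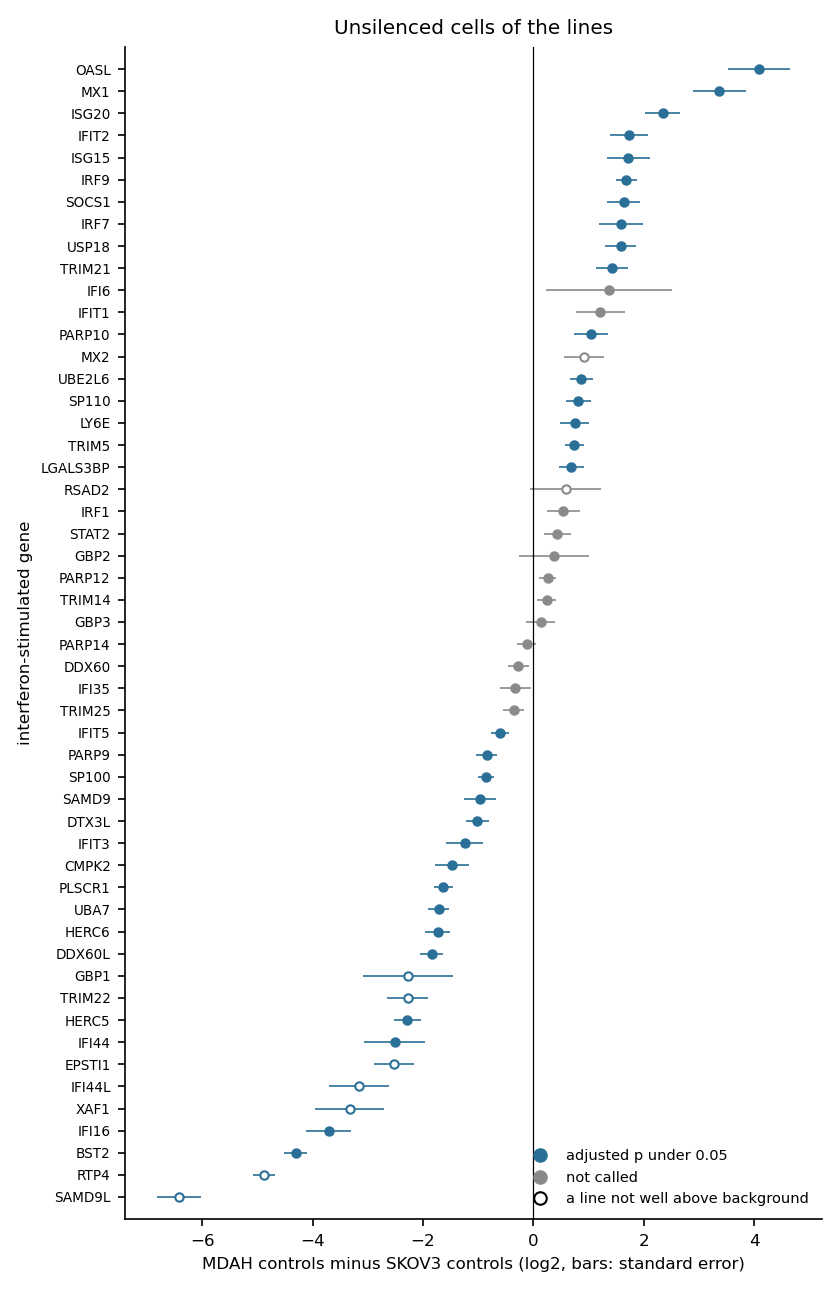
Log2 difference between the MDAH and SKOV3 controls for each of the 52 genes, in order, with bars of 1 standard error from limma, blue for an adjusted p under 0.05, grey for the rest, and open circles where the probe was not well above background in 1 or both lines. OASL at 4.09 and MX1 at 3.37 lie highest, and SAMD9L at -6.43 and RTP4 at -4.88 lowest.

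No difference between the shRNAs passed for a member. Over both lines, 0 members passed for sh-SFPQ#3 minus sh-SFPQ#2 by limma, against 0.721% of all genes, and 6 had an unadjusted p under 0.05 against 17.8%: IRF7, HERC5, USP18, GBP1 and CMPK2 were lower with sh-SFPQ#3, and PARP10 was higher. The largest of these by size was GBP1 with -1.25 (adjusted p = 0.0742, limma), which passed with quantile normalization at -1.57, while IRF7 with -0.87 passed among genes well above background on all 8 arrays. In MDAH cells sh-SFPQ#3 was above sh-SFPQ#2 for 31 members, where 53% of all genes were. In SKOV3 cells it was below for 42 members, where 53.6% of all genes were, with a median of -0.30 over the members against -0.031 over all genes.

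Upstream of these genes, few interferon genes could be tested, and 1 of them was called in each line. Of 21 interferon genes 17 had a probe and 4 were well enough above background to be tested. IFNB1, interferon beta, was between -6.54 and -4.78 and not well above background on any array. IFNL2, a type III interferon, was at -2.43 and -2.22 against -1.24 and -1.12 in MDAH cells and at -3.38 and -3.11 against -3.50 and -3.32 in SKOV3 cells. It rose 2.21-fold in MDAH cells (log2 change 1.15, adjusted p = 0.0299, limma), which held in 3 of the 8 fits that left out an array and in none without a control. IFNE, an interferon of the reproductive tract, was at -4.63 and -4.42 against -5.11 and -4.81 in MDAH cells. It was at -0.12 and -0.70 against -1.99 and -1.98 in SKOV3 cells and fell 2.97-fold (log2 change -1.57, adjusted p = 0.0434, limma), a call that held in 0 of those 8 fits. The type III genes are close copies of each other, so that a probe may report more than 1 of them.

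None of the 9 receptors and kinases, of the 8 genes of interferon induction or of the 4 inhibitors was called for silencing by limma, in either line or in the average. The type I receptor chains IFNAR1 and IFNAR2 changed by 0.52 and 0.29 in MDAH cells and by 0.49 and -0.36 in SKOV3 cells. The kinases JAK1 and TYK2 changed by 0.69 and 0.29 in MDAH cells and by 0.10 and 0.54 in SKOV3 cells. Between the unsilenced lines, STING1, the adaptor for cytosolic DNA, was lower in MDAH cells with -5.33 (adjusted p = 5.37e-06, limma). IFNLR1, the specific chain of the type III receptor, was at 1.26 and 1.33 in MDAH controls and was not well above background on any SKOV3 array.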

How the data were processed

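Total RNA of the 8 samples was labelled and hybridized by the authors to one-colour Agilent human expression arrays, and the deposited scanner files hold probe intensities as Agilent Feature Extraction wrote them (version 10.7.3.1 per the labels' processing notes, 11.5.1.1 per the file headers), with the local background subtracted. A series table of log2 values, deposited beside them, tracked quantile-normalized log2 intensities minus the median of each probe.

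Control and outlier spots were removed, replicate spots averaged, and each array's 75th percentile subtracted from log2 of the processed signal. Of 50599 probes 28174 were named through RefSeq accessions. The brightest probe stood for a gene. Genes entered the test where both arrays of at least 1 group were well above background. limma 3.58.1 in R 4.3.3 fitted the 4 groups (4 residual degrees of freedom) with contrasts for each line, their average and difference, and the unsilenced lines. Control 2 against control 1 and the shRNAs were compared in a fit with the numbers as a block. P-values were adjusted by Benjamini-Hochberg over all 15544 genes. Where a group was not well above background, folds are bounds against the lowest signal well above it. The steps were tested on simulated data.

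Members and lists were chosen with earlier results of these data known. Values on all arrays are given for members called in a comparison, the 5 highest and lowest of each silencing comparison and of the unsilenced lines, and some fixed by role. Alternatives were quantile normalization, median centring, normexp background (offset 50), the deposited table, other filters, the mean of a gene's probes, each line alone, the methods' t-test (two-sided Student), the block, and leaving out each array. With 2 arrays a group, their number limits the precision. The slide could not be a block, since there was 1. Some genes of the pathway and marker lists are not reported here.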

Additional observations from a re-analysis of the deposited data

Results flagged for a closer look

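MX2 and RSAD2 stood out because the silenced arrays of the lines lay on opposite sides of their controls. For MX2 the change in MDAH cells minus that in SKOV3 cells was -4.29 on the log2 scale (adjusted p = 0.0549, limma), made up of -1.16 in MDAH and 3.12 in SKOV3 cells. For RSAD2 the difference was -4.12 (adjusted p = 0.184, limma), made up of -0.81 and 3.31. Neither difference passed the test. Neither gene was well above background on a silenced MDAH array, and with the normexp background correction the MDAH changes were 0.29 for MX2 and 0.11 for RSAD2, on the other side of 0.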

How the results depend on the processing

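Of 52 members, limma called 2 for silencing in MDAH cells, 2 in SKOV3 cells, 9 in the average, 0 for the difference between the lines, 38 between the unsilenced lines and 0 between the shRNAs, and no called value turned its direction under any alternative. In MDAH cells the count was 1 with quantile normalization, the deposited table, no filter on dim probes, only genes well above background on all 8 arrays, or the line alone, 0 with the methods' t-test adjusted and 7 with it unadjusted. In SKOV3 cells it was 1 with median centring or only genes well above background on all arrays, 7 with normexp, 0 with no filter, the line alone or the t-test adjusted, and 6 with the t-test unadjusted. The average gave 4 with no filter. The shRNAs gave 1 with quantile normalization, normexp, the deposited table or genes well above background on all arrays. With the replicate block the counts were 4, 7 and 16 and contained every silencing call, and it ended 2 calls between the unsilenced lines, LY6E and LGALS3BP. The silenced numbers name the same shRNA in both lines, and across genes the shRNA differences of the lines had r = 0.36. Nothing ties the control numbers of the lines to each other, and their differences had r = 0.078. Leaving out each array in turn gave 0 to 3 calls in MDAH cells, 0 to 2 in SKOV3 cells, 0 to 10 in the average, 0 to 1 for the difference between the lines and 29 to 39 between the unsilenced lines, where a lone array was taken to vary like the other groups. Further alternatives were chosen after seeing the data: with only the controls numbered 1, or only those numbered 2, the silencing counts were 0 in MDAH cells, SKOV3 cells and the average, and the unsilenced lines gave 23 and 21.

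Median centring moved the median MDAH change of all genes from 0.10 to 0.21, and that of the unsilenced difference from -0.05 to -0.21. The median change of the members kept its sign under every scaling and left-out array, between 0.21 and 0.49 in MDAH and between 0.45 and 0.82 in SKOV3 cells. The count of positive MDAH changes moved from 45 of 52 to 38 with quantile normalization or the deposited table and to 48 with normexp.

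Changes that turned their sign had not been called. In MDAH cells STAT2 was at -0.0088 with quantile normalization, -0.018 with normexp, -0.0100 with the deposited table and -0.011 with only the controls numbered 2 (-0.011 to 0.26 without each array). IFI6 was at -0.57, MX1 at -0.094 and TRIM22 at 0.0098 with only the controls numbered 2. With normexp MX2 was at 0.29, GBP2 at 0.19, RSAD2 at 0.11, CMPK2 at 0.058 and TRIM22 at 0.40. Without each array, MDAH changes ran from -0.859 to 0.214 for IRF7, -0.567 to 1.16 for IFI6, -0.0942 to 0.411 for MX1 and -0.948 to 0.00982 for TRIM22. In SKOV3 cells with only the controls numbered 1, IFIT5 was at 0.0098, GBP2 at 0.75, GBP3 at 0.0098 and SAMD9L at 0.16. Without each array they ran from -0.235 to 0.0381 for IFIT5, -0.884 to 0.748 for GBP2, -0.545 to 0.0893 for GBP3 and -0.608 to 0.170 for SAMD9L. The causes were not tested. Low signal over background limited 12 members, most of them in MDAH cells.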
